A study of Mus musculus with 6 samples.

Results

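The nuclear genes of respiratory complexes II to V were taken from the deposited table by name. These were Sdha to Sdhd for complex II, the Uqcr genes and Cyc1 for complex III, the electron carrier gene Cycs, the Cox4 to Cox8 genes for complex IV and the Atp5 genes for complex V. Of 32201 genes listed, 54 names matched, and 49 were used once 5 names marked as pseudogenes (-ps) had been left out. They comprised 4 genes of complex II, 9 of complex III, Cycs, 18 of complex IV and 17 of complex V.

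RNA sequencing had been done on the hippocampus of male mice of the inbred C57BL/6N strain at 8 weeks of age. All mice had undergone chronic unpredictable mild stress, a schedule of varied mild stressors that models depression in rodents. The 2 groups were stressed mice given baicalin at 20 mg/kg (3 libraries), a plant flavonoid carrying a glucuronic acid group, and stressed mice given saline (3 libraries). Unstressed mice were not analysed here. Whether the libraries of a group came from different animals is not stated, so the p-values below describe variation between libraries, which may be technical.

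The respiratory chain of the inner mitochondrial membrane passes electrons from metabolic fuels to oxygen and pumps protons, and ATP synthase uses the returning protons to make ATP. Complex II (succinate dehydrogenase) hands electrons from succinate to ubiquinone, complex III hands them to cytochrome c, complex IV (cytochrome c oxidase) reduces oxygen, and complex V is ATP synthase. Complex II is encoded wholly in the nucleus, whereas complexes III, IV and V also contain subunits made from mitochondrial DNA, which form part of their membrane cores. Neurons depend on this pathway for most of their ATP, and several subunits of complex IV exist as paired isoforms, one general and one restricted to particular tissues.

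Transcription of many of these genes is known to involve the factors NRF1, GABP (an ETS factor, also called NRF2), YY1 and Sp1, so the sequence before the start site was searched for their motifs. RefSeq promoter windows (GRCm38.p6, 250 bases before to 50 after the start) matched 37 of the 49 genes, 35 by symbol and 2 by synonym. On either strand, the NRF1 motif (GCGC, then any base, then TGCGC) was in 10 windows (27.0%), against 4.6% of all 32851 windows and 9.88% of the windows of genes tested below. The ETS motif CCGGAAG was in 11 (29.7%), against 8.86% of all windows and 16.72% of those of tested genes. The YY1 motif AAGATGGCG was in 1 window (2.7%, against 1.4% of all windows and 3.06% of those of tested genes), and the Sp1 motif GGGCGG was in 15 (40.5%, against 35.66% of all windows and 62.74% of those of tested genes). None of the 4 motifs contains another, although the NRF1 motif can match both strands at one place. At least 1 of the NRF1, ETS and YY1 motifs was in 48.6% of the matched windows, against 13.6% of all windows and 26.6% of those of tested genes. It was present for 9 of the 14 matched genes with an unadjusted p under 0.05 below, and for 9 of the other 22 that were tested. A link between motif and change was not tested. A match describes letters and shows no binding.

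The upstream sequences of 5 genes are shown, 5′ to 3′ toward the start site, up to the first annotated exon base on either side. Uqcrh and Atp5h were higher with baicalin at an unadjusted p under 0.05, Cox6a1 was not, and Cox7a1 and Cox8b are the muscle isoforms described below. Capitals mark matches to the ETS motif (Uqcrh) or the NRF1 motif (Atp5h and Cox6a1); neither motif was in the windows of Cox7a1 and Cox8b. The regions are chr4:116075072-116075268, minus strand, for Uqcrh; chr11:115419963-115420127, minus strand, for Atp5h; chr5:115348982-115349129, minus strand, for Cox6a1. Those of the muscle isoforms are chr7:30183921-30184143, plus strand, for Cox7a1 and chr7:140900447-140900696, minus strand, for Cox8b.
Uqcrh: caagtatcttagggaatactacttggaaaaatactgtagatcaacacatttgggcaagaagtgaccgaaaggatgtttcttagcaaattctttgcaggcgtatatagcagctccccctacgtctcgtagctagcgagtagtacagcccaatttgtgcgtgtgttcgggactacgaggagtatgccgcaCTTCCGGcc
Atp5h: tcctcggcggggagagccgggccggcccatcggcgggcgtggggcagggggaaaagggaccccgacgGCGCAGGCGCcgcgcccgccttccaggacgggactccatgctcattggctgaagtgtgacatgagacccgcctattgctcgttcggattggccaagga
Cox6a1: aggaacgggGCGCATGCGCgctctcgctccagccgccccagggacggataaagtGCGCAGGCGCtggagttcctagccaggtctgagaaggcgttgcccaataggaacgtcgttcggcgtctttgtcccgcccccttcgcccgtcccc
Cox7a1: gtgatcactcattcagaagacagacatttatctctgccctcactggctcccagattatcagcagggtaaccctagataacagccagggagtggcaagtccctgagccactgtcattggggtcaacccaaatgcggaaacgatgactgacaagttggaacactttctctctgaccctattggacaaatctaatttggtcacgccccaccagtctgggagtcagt
Cox8b: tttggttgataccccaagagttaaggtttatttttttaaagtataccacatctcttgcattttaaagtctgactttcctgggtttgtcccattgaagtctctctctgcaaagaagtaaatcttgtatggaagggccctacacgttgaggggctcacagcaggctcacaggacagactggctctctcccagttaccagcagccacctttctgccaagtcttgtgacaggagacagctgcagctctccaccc

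Library totals were 61303274 to 64983755 counts with baicalin and 65989141 to 67957752 with saline. The share of mitochondrial transcripts was 7.71 to 8.69% in baicalin libraries, against 7.18 to 7.82% in saline libraries. The 49 genes made up 0.776 to 0.817% of counts in baicalin libraries, against 0.725 to 0.763% in saline libraries. Of 8 hippocampal neuron markers, 8 were tested and 4 were lower with baicalin at an unadjusted p under 0.05 in edgeR, against 5.46% of all genes. These 4 were Fibcd1, Neurod6, Zbtb20 and Slc17a7. The median log2 change of the 8 was -0.18, while Prox1, Snap25 and Rbfox3 had 0.08, 0.01 and 0.09. The summed level of the 8 was 725.8 to 759 FPKM with baicalin and 763 to 827 FPKM with saline. The medians of the astrocyte, oligodendrocyte, microglial, endothelial and interneuron lists (5 genes each) were 0.00, 0.09, -0.01, -0.15 and -0.07. That of 5 tested mural cell genes was 0.01. All 4 tested thalamic genes had positive changes (median 0.39), with 0 at an unadjusted p under 0.05 in edgeR. Choroid plexus genes summed to 21.1, 64.7 and 19.5 FPKM in the baicalin libraries, against 11.1, 12.9 and 38.7 FPKM in the saline libraries. Meningeal genes summed to 85.4 to 137.8 FPKM with baicalin, against 79.9, 70.5 and 539 FPKM in saline libraries 1, 2 and 3, so saline library 3 stood apart. In bulk tissue, fewer cells of a type and less RNA per cell cannot be told apart.

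Deposited FPKM values (fragments scaled to a gene length and to library) order the genes by level, and the length used moves that order. Atp5l averaged 20.8 FPKM and Cox7b 104 FPKM, with mean counts of 9954 and 9405. The lengths implied by their counts and FPKM were 7353 and 1385 bp. The highest was Cox8a, which encodes a small subunit of complex IV, at a mean of 399 FPKM over the 6 libraries. It was followed by Cox6b1 at 310.0 FPKM and Cox6a1 at 245 FPKM, both small subunits of the same complex. The catalytic and structural F1 subunits of ATP synthase, Atp5b at 215 and Atp5a1 at 212 FPKM, overlapped across libraries, and Cox4i1 was close at 206 FPKM. In all, 42 genes averaged at least 5 FPKM, and the lowest of these was Atp5s at 6.16 FPKM, whose product is an ATP synthase coupling factor rather than a core subunit. The other 7 were all complex IV isoforms, between 4.16 FPKM for Cox6a2 and 0.523 FPKM for Cox7b2.

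**Figure D1:**
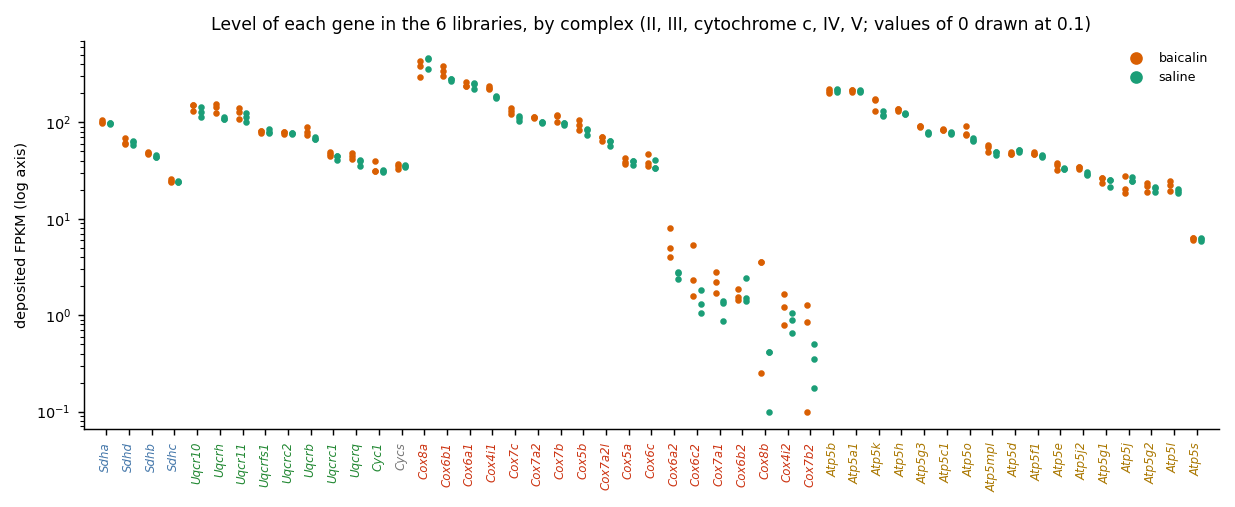
Deposited FPKM (log axis) of each of the 49 genes, ordered by complex and by mean level, with 1 point per library and baicalin drawn left of saline; values of 0 are drawn at 0.1. The 42 genes of at least 5 FPKM lie in the upper part, and 7 complex IV isoforms lie below 5 FPKM.

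Most of the 49 genes had slightly higher transcript levels with baicalin, and no single gene passed the adjusted threshold of 0.05 in edgeR's quasi-likelihood test (0 genes, against 6 of 13153 or 0.0456% of all genes tested). Of 48 genes tested (mean of at least 1 FPKM), 41 had a positive log2 change and 7 a negative one, against 49.8% positive over all genes. At an unadjusted p under 0.05, 18 were higher and 0 lower (37.5% higher), where 6.34% of all genes were higher and 5.46% lower. All 3 baicalin libraries lay above all 3 saline libraries for 18 genes and below for 0, against 9.93% and 9.52% of all genes. Cox8b (0.276 FPKM with saline, 2.45 with baicalin) and Cox4i2 (0.863 and 1.22 FPKM) reached the filter mean only through the baicalin libraries. Both were among the 41 positive genes, and Cox8b was among the 18 higher at that p. Of the 42 genes of at least 5 FPKM, 36 were positive and 15 were higher at that p. The median log2 change was 0.16 over the 48 genes and 0.00 over all genes. DESeq2 called 5 of the genes, all higher, where it called 218 of 12377 genes in either direction (1.76%) and 131 higher (1.06%).

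The baicalin libraries did not contribute equally. Baicalin library 1 lay above every saline library for 26 of the 48 genes, against 27.1% of all genes. Library 2 did so for 31 genes, against 28.7% of all genes, and library 3 for 39 genes, against 31.3%. Of the 18 genes with an unadjusted p under 0.05, 12 kept it in edgeR whichever single library was left out. These 12 were Uqcrh and Uqcrb of complex III, Cox4i1, Cox6a2, Cox6b1, Cox7a2 and Cox7c of complex IV, and Atp5c1, Atp5g3, Atp5h, Atp5j2 and Atp5o of complex V.

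Complexes III and IV had the larger median changes and complex II the smallest, with wide overlap between complexes and no test made between them. The median log2 change was 0.05 over complex II, 0.16 over complex III, 0.21 over complex IV and 0.10 over complex V. Under TPM scaling these medians were -0.03, 0.08, 0.13 and 0.02, against -0.08 over all genes tested. The genes with an unadjusted p under 0.05 in edgeR numbered 1 of 4, 3 of 9, 8 of 17 and 6 of 17 in complexes II, III, IV and V, all higher with baicalin. The 8 of complex IV included Cox8b, which passed the filter only through the baicalin libraries. Over the 11 complex IV genes of at least 5 FPKM alone the median was 0.17, with 5 genes under that p.

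Summed over its genes, complex II averaged 238 ± 1.89 FPKM in baicalin libraries and 229.6 ± 3.26 FPKM in saline libraries (SD, n = 3 each). Complex III averaged 775 ± 51.5 FPKM in baicalin libraries and 691 ± 33.7 FPKM in saline libraries (SD, n = 3 each), and complex IV 1809 ± 153 FPKM in baicalin libraries and 1660.5 ± 104 FPKM in saline libraries (SD, n = 3 each). Complex V averaged 1295 ± 32.9 FPKM in baicalin libraries and 1198 ± 24.7 FPKM in saline libraries (SD, n = 3 each). These sums of complexes II and V did not overlap between groups, but neither did the summed FPKM of all genes listed, at 318131 to 339672 in baicalin libraries against 308688 to 313255 in saline libraries. Scaled to one total for every library (TPM), the groups overlapped for all 4 complexes. Complex II then had 747, 732 and 706 TPM in the baicalin libraries, against 739, 754 and 722 TPM in the saline libraries, and complex V 3950.1, 4073 and 3864 TPM in the baicalin libraries, against 3887, 3937 and 3734 TPM in the saline libraries. The unscaled sums of complexes III and IV overlapped: complex IV summed to 1647 FPKM in baicalin library 1, below 1736 and 1703 FPKM in saline libraries 1 and 2.

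**Figure D2:**
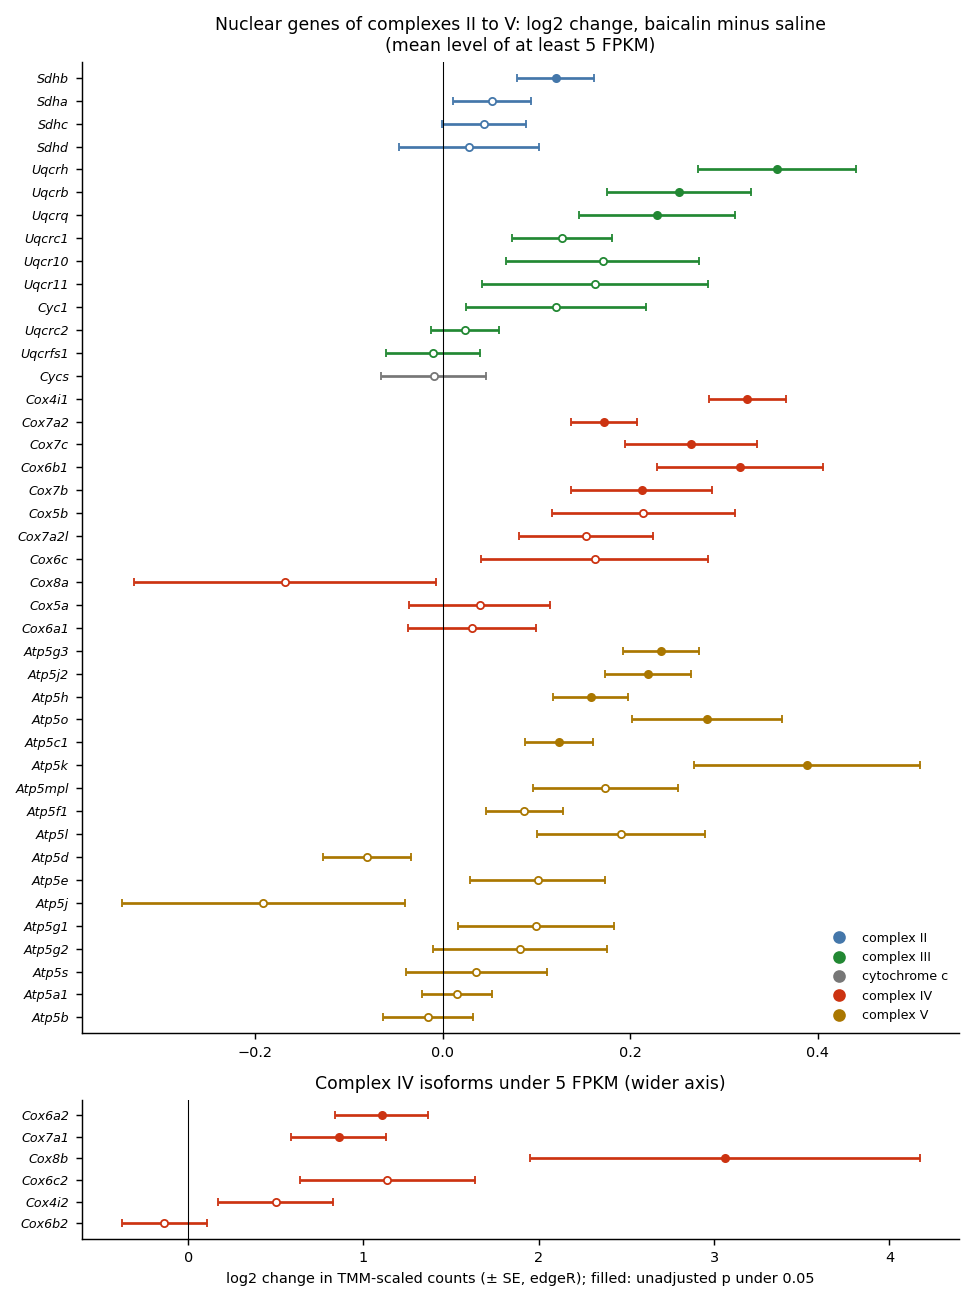
Log2 change in TMM-scaled counts, baicalin minus saline, for the 48 tested genes by complex (points, ± SE in edgeR); filled points have an unadjusted p under 0.05. Points of complexes III, IV and V sit mostly right of 0, those of complex II close to it, and the lower panel holds 6 low-level complex IV isoforms on a wider axis.

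The mean log2 level of each complex, relative to all 6 libraries, places the libraries within each group. For complex II it was 0.01, 0.02 and 0.06 in the baicalin libraries, against -0.03, 0.00 and -0.06 in the saline libraries. For complex III it was -0.01, 0.11 and 0.14 in the baicalin libraries, against -0.03, -0.06 and -0.15 in the saline libraries. For the complex IV genes of at least 5 FPKM it was -0.02, 0.08 and 0.17 in the baicalin libraries, against -0.03, -0.04 and -0.15 in the saline libraries. Complex V had -0.01, 0.04 and 0.13 in the baicalin libraries, against -0.03, -0.02 and -0.11 in the saline libraries. In complexes III, IV and V, baicalin library 1 was close to saline libraries 1 and 2, baicalin library 3 was the highest, and saline library 3 was the lowest. Without saline library 3 the median of complex III was 0.09, and that of all 48 genes was 0.11 with 13 genes higher at an unadjusted p under 0.05 in edgeR.

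**Figure D3:**
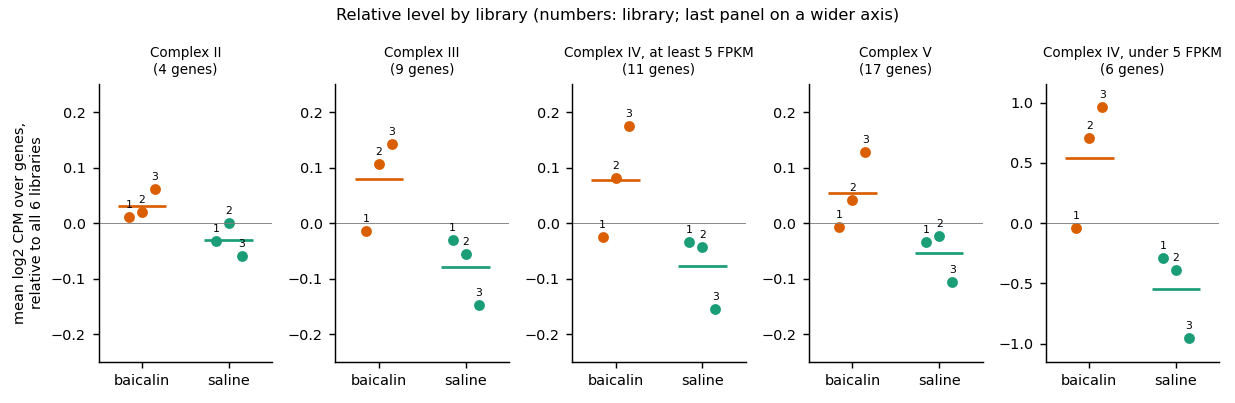
Mean log2 CPM over the genes of each complex, relative to all 6 libraries (y axis; the last panel has a wider axis), with numbered points for libraries and lines for group means. Baicalin library 1 lies near the saline libraries in complexes III, IV and V, while baicalin libraries 2 and 3 lie above them.

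Within complex II, Sdhb (the iron-sulfur subunit) had 124, 127 and 124 CPM in the baicalin libraries, against 113, 119 and 113 CPM in the saline libraries. Its groups did not overlap, and the log2 change was 0.12 ± 0.04 (SE), with adjusted p = 0.381 in edgeR (unadjusted 0.0238). Sdha, the flavoprotein that oxidises succinate, had 508, 472 and 481 CPM in the baicalin libraries, against 461, 475 and 472 CPM in the saline libraries. Its groups overlapped (log2 change 0.05 ± 0.04 (SE)). Of the membrane anchors, Sdhc had 90.4, 95.2 and 94.0 CPM in the baicalin libraries, against 89.3, 93.0 and 88.9 CPM in the saline libraries (log2 change 0.04 ± 0.05 (SE)). Sdhd, the most variable of the 4, had 84.1, 86.1 and 98.2 CPM in the baicalin libraries, against 91.7, 88.5 and 83.1 CPM in the saline libraries (log2 change 0.03 ± 0.07 (SE)). The groups of both anchors overlapped. The changes of Sdha, Sdhc and Sdhd turned negative under TPM scaling, where the median of all genes tested was -0.08.

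In complex III the small subunits carried the higher values. Uqcrh, the hinge protein that helps cytochrome c1 meet cytochrome c, had 177, 202 and 224 CPM in the baicalin libraries, against 160.5, 156 and 155 CPM in the saline libraries. Every baicalin library was above every saline library, the log2 change was 0.36 ± 0.08 (SE), and adjusted p was 0.322 in edgeR and 0.0166 in DESeq2. Uqcrb, a ubiquinone-binding-site subunit, had 75.4, 79.2 and 90.8 CPM in the baicalin libraries, against 67.0, 68.6 and 70.4 CPM in the saline libraries (log2 change 0.25 ± 0.08 (SE), adjusted p = 0.354 in edgeR). The groups were apart here too. Uqcrq, another small subunit, had 87.7, 93.6 and 103 CPM in the baicalin libraries, against 85.0, 83.9 and 73.4 CPM in the saline libraries (log2 change 0.23 ± 0.08 (SE), adjusted p = 0.395 in edgeR), with saline library 3 lowest.

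The 5 small subunits of complex III (Uqcrb, Uqcrh, Uqcrq, Uqcr10 and Uqcr11) had a median log2 change of 0.23, with 3 under an unadjusted p of 0.05. The 2 core proteins had 0.13 (Uqcrc1) and 0.02 (Uqcrc2), with 0 under that p. Uqcrc1 was close to it (unadjusted p = 0.0504 in edgeR), with its groups apart. Uqcr10 and Uqcr11 overlapped between groups. With the length trend described below removed, Uqcrc1 stayed at 0.13, while Uqcr10 and Uqcr11 were at -0.00556 and -0.00415. Of the electron-carrying subunits, the Rieske iron-sulfur protein gene Uqcrfs1 had 128, 122 and 128 CPM in the baicalin libraries, against 124, 134 and 122 CPM in the saline libraries. Its log2 change of -0.01 ± 0.05 (SE) was the lowest of the complex, and its groups overlapped. Cyc1, which encodes cytochrome c1, had 77.4, 97.8 and 78.6 CPM in the baicalin libraries, against 79.5, 78.3 and 75.6 CPM in the saline libraries (log2 change 0.12 ± 0.10 (SE)). Only baicalin library 2 stood above the others. Cycs, which encodes the soluble carrier cytochrome c, had 139, 128 and 146 CPM in the baicalin libraries, against 139, 141 and 136 CPM in the saline libraries. The log2 change was -0.01 ± 0.06 (SE), and baicalin libraries 2 and 3 were its lowest and highest values. As TPM, Cycs was at 111.15, 102 and 108 in the baicalin libraries, against 114, 116 and 111.24 in the saline libraries, with every baicalin library below every saline library. The log2 change of Cycs under TPM scaling was -0.09, near the median of -0.08 over all genes under that scaling.

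In complex IV, Cox4i1, the general isoform of the regulatory subunit IV, had the smallest p of the 49 genes (ENSMUSG00000031818, chromosome 8, 120668222 to 120674207 on the plus strand of mm10 in the deposited table). It had 411, 421 and 400.0 CPM in the baicalin libraries, against 337, 329 and 317 CPM in the saline libraries. The lowest baicalin library was above the highest saline library, and the log2 change was 0.33 ± 0.04 (SE), within 0.30 to 0.35 whichever library was left out. Adjusted p was 0.127 in edgeR and 5.43e-06 in DESeq2, and the unadjusted p in edgeR was 0.00013. Emc8, which lies on the opposite strand and shares 352 bp with the Cox4i1 locus, had a log2 change of 0.06 ± 0.05 (SE).

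Cox7a2, the general isoform of subunit VIIa, showed the least spread, with 123, 123 and 124 CPM in the baicalin libraries, against 109, 109 and 109.9 CPM in the saline libraries. The groups did not overlap, the log2 change was 0.17 ± 0.04 (SE) and adjusted p was 0.31 in edgeR. Cox6b1, which faces cytochrome c on the outer side of the enzyme, had 250.2, 275 and 318 CPM in the baicalin libraries, against 229.7, 231 and 216 CPM in the saline libraries (log2 change 0.32 ± 0.09 (SE), adjusted p = 0.335 in edgeR), again with the groups apart. Cox7c and Cox7b, small transmembrane subunits, had log2 changes of 0.26 ± 0.07 (SE) and 0.21 ± 0.08 (SE), with all baicalin libraries above all saline libraries. Cox5b, a matrix-side subunit, had 0.21 ± 0.10 (SE), Cox6c 0.16 ± 0.12 (SE) and Cox7a2l, a factor that joins complexes III and IV into supercomplexes, 0.15 ± 0.07 (SE), and their groups overlapped.

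Not all complex IV genes followed. Cox8a, the gene of highest FPKM, had 188, 242 and 279 CPM in the baicalin libraries, against 289, 284 and 224 CPM in the saline libraries. Its log2 change was -0.17 ± 0.16 (SE) (adjusted p = 0.693 in edgeR), with baicalin library 1 the lowest of all and wide spread in both groups. Cox5a, a matrix-side subunit, had 0.04 ± 0.07 (SE) and Cox6a1 0.03 ± 0.07 (SE), changes below their errors. Both turned negative with the length trend removed and under TPM scaling, where the median of all genes tested was -0.08.

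In complex V, Atp5g3, one of 3 genes for the proton-carrying c subunit of the rotor, had 223, 231 and 232 CPM in the baicalin libraries, against 199.6, 196 and 188 CPM in the saline libraries. The groups were apart, the log2 change was 0.23 ± 0.04 (SE), and adjusted p was 0.219 in edgeR and 0.00628 in DESeq2. The 2 other c-subunit genes, which encode the same mature protein, had 0.10 (Atp5g1) and 0.08 (Atp5g2), and their groups overlapped. Near-identical pseudogene copies held 16.4% as many counts as Atp5g1 and 123% as many as Atp5g2, so both values are uncertain.

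Atp5j2, the membrane subunit f, had 127, 129.7 and 135 CPM in the baicalin libraries, against 111, 116 and 109 CPM in the saline libraries (log2 change 0.22 ± 0.05 (SE), adjusted p = 0.31 in edgeR and 0.0404 in DESeq2). Atp5h, subunit d of the peripheral stalk, had 234, 222 and 237 CPM in the baicalin libraries, against 207, 210.0 and 205 CPM in the saline libraries (log2 change 0.16 ± 0.04 (SE), adjusted p = 0.322 in edgeR). For both genes every baicalin library was above every saline library. Atp5o, the stalk protein OSCP, had a log2 change of 0.28 ± 0.08 (SE) with groups apart, and Atp5k, the membrane subunit e, had 93.6, 122 and 127 CPM in the baicalin libraries, against 93.8, 85.5 and 82.4 CPM in the saline libraries. Its log2 change of 0.39 ± 0.12 (SE) was the largest of complex V, but baicalin library 1 lay inside the saline range.

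The 5 genes of the catalytic F1 head had a median log2 change of 0.02, with 1 under an unadjusted p of 0.05 in edgeR (Atp5c1, the rotating gamma subunit, 0.12 ± 0.04 (SE)). The 11 genes of the membrane part and the stalk had a median of 0.17, with 5 under that p. By library, the mean relative log2 level of the F1 genes was 0.03, -0.02 and 0.03 in the baicalin libraries, against -0.02, 0.02 and -0.04 in the saline libraries. That of the membrane and stalk genes was -0.03, 0.08 and 0.18 in the baicalin libraries, against -0.04, -0.05 and -0.14 in the saline libraries. The F1 libraries interleaved, whereas the membrane and stalk groups did not overlap. That separation was narrow, with baicalin library 1 at -0.028 and saline library 1 at -0.043. Both groupings were made with the values known, and no test was made between them. Atp5b and Atp5a1, which form the catalytic hexamer, had log2 changes of -0.02 ± 0.05 (SE) and 0.02 ± 0.04 (SE).

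Atp5j and Atp5d had the most negative log2 changes of complex V. Atp5j, the coupling factor F6 of the stalk, had 74.4, 66.5 and 101 CPM in the baicalin libraries, against 89.5, 98.4 and 87.7 CPM in the saline libraries (log2 change -0.19 ± 0.15 (SE)), with baicalin library 3 the highest of all 6 and libraries 1 and 2 the lowest. Atp5d, the delta subunit of F1, had 104, 105 and 111 CPM in the baicalin libraries, against 113, 116 and 109.7 CPM in the saline libraries (log2 change -0.08 ± 0.05 (SE)), and its groups overlapped by baicalin library 3. Atp5j shares 701 bp with Gabpa on the opposite strand and Atp5d 734 bp with Cbarp. Gabpa and Cbarp had log2 changes of -0.21 and -0.14, and the strand setting of the counting is not known here. The part of the overlap in these values was not tested.

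Across complexes, 7 genes were picked from those whose products bind redox cofactors or catalyse (Sdha, Sdhb, Uqcrfs1, Cyc1, Cycs, Atp5a1 and Atp5b). This is not a full list of such genes. These 7 had a median log2 change of 0.02, with 1 under an unadjusted p of 0.05. They are longer, with a median length of 3577 bp, than the 5 small subunits of complex III at 1000 bp. The groupings by role were made with the values known and are descriptions.

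Complex IV isoforms restricted to other tissues were at low levels here, and some were higher with baicalin. Cox6a2, the heart and skeletal muscle isoform of subunit VIa that is also found in parvalbumin interneurons, had 3.14, 6.26 and 3.98 CPM in the baicalin libraries, against 1.87, 2.14 and 2.21 CPM in the saline libraries. Its groups did not overlap, the log2 change was 1.10 ± 0.27 (SE), and adjusted p was 0.322 in edgeR and 0.0197 in DESeq2. Cox7a1, the muscle isoform of subunit VIIa, had 1.08, 1.73 and 1.39 CPM in the baicalin libraries, against 0.853, 0.901 and 0.563 CPM in the saline libraries (log2 change 0.86 ± 0.27 (SE), adjusted p = 0.36 in edgeR), with the groups apart. Cox8b, the muscle isoform of subunit VIII, had 7, 96 and 89 counts in the baicalin libraries, against 12, 12 and 0 counts in the saline libraries. Only baicalin libraries 2 and 3 were high, and the fitted log2 change of 3.06 ± 1.11 (SE) (adjusted p = 0.395 in edgeR) rests on them. DESeq2 gave no adjusted p for Cox7a1 and Cox8b.

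Striated muscle genes, a list chosen after these values were seen, were high in the same baicalin libraries. Ckm, the muscle creatine kinase gene, had 9.82, 57.1 and 62.5 CPM in the baicalin libraries, against 5.56, 8.37 and 6.24 CPM in the saline libraries. Mylpf, a fast muscle myosin light chain gene, had 6.41, 45.5 and 49.8 CPM in the baicalin libraries, against 3.59, 5.02 and 4.74 CPM in the saline libraries. Of 7 genes listed, 5 were tested and all 5 had an unadjusted p under 0.05 in edgeR (median log2 change 2.68), while Myh1 and Des were below the filter. The list summed to 25.2, 148 and 157 FPKM in the baicalin libraries, against 17.2, 22.8 and 17.8 FPKM in the saline libraries. Pvalb, found in fast muscle as well as in interneurons, had 39.3, 79.6 and 75.7 CPM in the baicalin libraries, against 35.4, 42.7 and 33.8 CPM in the saline libraries. Without baicalin libraries 2 and 3 the log2 change was 0.60 for Cox6a2, 0.49 for Cox7a1 and -0.14 for Cox8b. The part of muscle transcripts in the 3 isoform values was not tested.

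**Figure D4:**
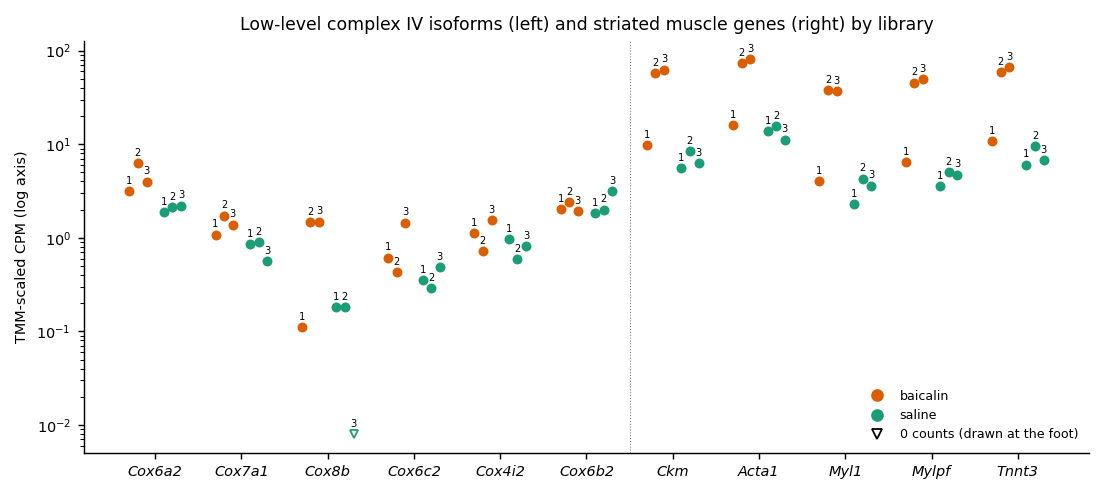
TMM-scaled CPM (log axis) in each numbered library for 6 low-level complex IV isoforms (left) and 5 striated muscle genes (right); baicalin is drawn left of saline and a count of 0 at the foot. Baicalin libraries 2 and 3 are high for the muscle genes and for Cox8b; baicalin library 1 is above all saline libraries for Cox6a2, Cox7a1 and 4 of the 5 muscle genes.

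The isoforms were also set against their general partners as FPKM ratios within each library. Cox6a2 was 1.68, 3.33 and 1.91% of Cox6a1 in the baicalin libraries, against 0.942, 1.09 and 1.26% in the saline libraries. Cox7a1 was 1.52, 2.46 and 1.96% of Cox7a2 with baicalin, against 1.33, 1.42 and 0.866% with saline. Neither ratio overlapped between groups, and both gave p = 0.1 in a two-sided exact permutation test, the smallest that 3 against 3 libraries allow (adjusted p = 0.35 over 7 ratios). Cox8b was 0.0835, 0.918 and 0.806% of Cox8a with baicalin, against 0.0901, 0.0917 and 0% with saline.

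The other ratios overlapped between groups. Cox4i2, the isoform known from lung and from brain pericytes, was 0.529, 0.330 and 0.749% of Cox4i1 with baicalin, against 0.555, 0.354 and 0.497% with saline (exact permutation p = 0.9). Cox6b2, known from testis, was 0.507, 0.554 and 0.374% of Cox6b1 with baicalin, against 0.496, 0.530 and 0.915% with saline (exact permutation p = 0.5). Cox7a2l was 61.9, 56.0 and 63.2% of Cox7a2 with baicalin, against 63.5, 56.9 and 63.2% with saline (exact permutation p = 0.6). Of the c-subunit genes, Atp5g1 was 26.8, 28.8 and 28.9% of Atp5g3 with baicalin, against 31.9, 32.4 and 28.4% with saline (exact permutation p = 0.3), and Atp5g2 was 21.6, 23.6 and 25.8% of Atp5g3 with baicalin, against 26.6, 26.9 and 25.4% with saline (exact permutation p = 0.2). Cox6c2 had 39, 28 and 87 counts with baicalin, against 23, 19 and 33 with saline, and overlapped. Cox7b2, below the filter, had 51, 0 and 32 counts with baicalin, against 15, 8 and 21 with saline.

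Short genes tended to have higher values with baicalin across the whole transcriptome, and these genes are short. Median length, as implied by counts and FPKM, was 1862 bp for the genes described here and 4602 bp for all genes tested. The shortest of 5 equal length bins held 27 of the 48 genes. In that bin all genes had a median log2 change of 0.11, with 14.6% higher at an unadjusted p under 0.05 in edgeR, and the 27 had a median of 0.21, with 13 under that p. The bin of longest genes had a median of -0.07 and held none of the 48. The highest of 5 bins by FPKM held 41 of the 48, of which 15 were higher at that p, against 14.1% of all its genes. With the length trend removed, the median over the 48 genes was 0.08, and over complexes II, III, IV and V it was 0.04, 0.08, 0.15 and 0.08. Positive changes then numbered 33 of 48, against 49.6% of all genes. All 18 genes under the unadjusted p kept a positive change. This carries little weight, because they had been selected by their changes in these same data. Whether length accounts for the remaining changes was not tested.

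**Figure D5:**
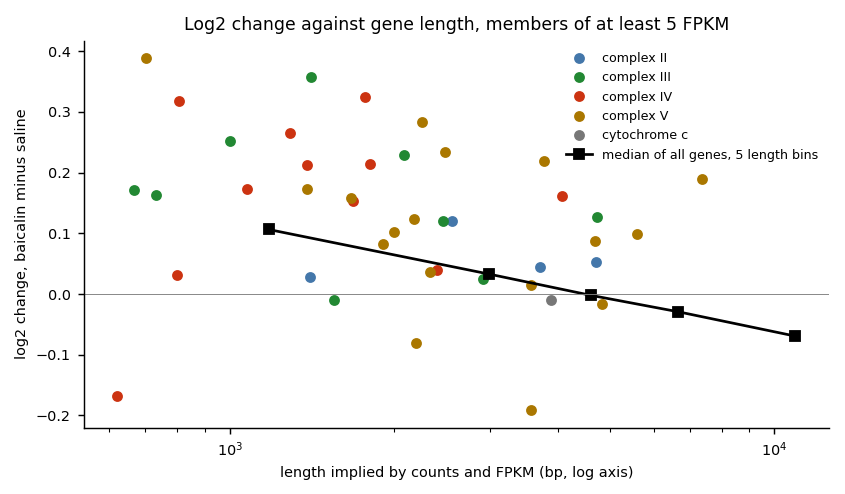
Log2 change, baicalin minus saline (y axis), against gene length (x axis, log scale) for the members of at least 5 FPKM, coloured by complex, with the median of all genes in 5 length bins as a line. The line runs from 0.11 for the shortest genes to -0.07 for the longest, and most points of complexes III, IV and V lie above it.

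The partner subunits encoded in mitochondrial DNA were also at higher values. All 6 (mt-Cytb of complex III, mt-Co1, mt-Co2 and mt-Co3 of complex IV, mt-Atp6 and mt-Atp8 of complex V) had a log2 change above 0. Their median was 0.13, and 0.05 with the length trend removed. At an unadjusted p under 0.05 in edgeR, 2 of the 6 were higher (33.3%, against 6.34% of all genes), and 0 passed the adjusted threshold. The 2 were mt-Co3 (log2 change 0.26 ± 0.08 (SE)) and mt-Co2 (0.25 ± 0.09 (SE)). Nuclear copies of these genes can share their reads, so the values carry that uncertainty. The groups of mt-Co3 and mt-Co2 did not overlap, while those of mt-Cytb (0.16), mt-Co1 (0.11), mt-Atp6 (0.10) and mt-Atp8 (0.10) overlapped. The mean relative log2 level of the 6 was 0.00, 0.01 and 0.23 in the baicalin libraries, against -0.11, -0.12 and -0.01 in the saline libraries, so baicalin library 3 alone stood well above.

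Assembly factors build these complexes without being part of them, and few had a low p. Of 38 tested, 23 had a positive change (60.5%, against 49.8% of all genes), and the median log2 change was 0.05. At an unadjusted p under 0.05 in edgeR, 1 was higher (2.63%) and 1 lower, against 6.34% and 5.46% of all genes. The higher one was Uqcc3, a complex III factor, with 18.05, 20.2 and 20.9 CPM in the baicalin libraries, against 17.3, 16.6 and 14.8 CPM in the saline libraries (log2 change 0.28 ± 0.10 (SE)). The lower one was Sdhaf3, a complex II factor, with 9.79, 10.1 and 10.4 CPM in the baicalin libraries, against 11.6, 11.7 and 13.2 CPM in the saline libraries (log2 change -0.27 ± 0.09 (SE)). Pet100, a complex IV factor, had 0.37 ± 0.16 (SE) with overlapping groups.

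Transcriptional regulators and other factors of mitochondrial energy metabolism had changes in both directions. Of 19 listed, 18 were in the table and 17 were tested, with a median log2 change of -0.06. At an unadjusted p under 0.05 in edgeR, 2 were higher (11.8%) and 2 lower, against 6.34% and 5.46% of all genes. Atpif1, which encodes the inhibitor of ATP synthase run in reverse, had 132, 129.6 and 152 CPM in the baicalin libraries, against 123, 111 and 107 CPM in the saline libraries (log2 change 0.28 ± 0.08 (SE)). Usmg5, a small ATP synthase-associated protein gene named after its value was seen, had 0.19 ± 0.08 (SE). The 2 lower ones were Pprc1, a PGC-1-related coactivator gene, with 12.2, 14.3 and 21.3 CPM in the baicalin libraries, against 24.2, 23.2 and 22.9 CPM in the saline libraries (log2 change -0.56 ± 0.20 (SE)), and Gabpa, the DNA-binding subunit of GABP, with 23.6, 21.6 and 23.9 CPM in the baicalin libraries, against 26.1, 26.6 and 27.5 CPM in the saline libraries (log2 change -0.21 ± 0.07 (SE)). The groups of all 4 were apart. Ppargc1a, the coactivator PGC-1 alpha, had a log2 change of -0.22 ± 0.13 (SE), Nrf1 -0.06 ± 0.39 (SE), Tfam, the mitochondrial DNA packaging factor, -0.10 ± 0.11 (SE) and Esrra, the receptor ERR alpha, 0.06 ± 0.11 (SE), all with overlapping groups.

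The counts above depend on the scaling and on which libraries were used. Under TPM scaling, which moved the median of all genes to -0.08, 32 of the 48 genes were positive (29.5% of all genes), 11 were higher and 1 lower at an unadjusted p under 0.05 in edgeR (2.49% and 11.9% of all genes), and the median was 0.08. Without saline library 3, 39 were positive and the median was 0.11. At an unadjusted p under 0.05 in edgeR, 13 were then higher (5.59% of all genes), the fewest with 1 library left out. With baicalin library 1 as the sole baicalin library, assumed to vary like the saline libraries, 35 were positive and the median was 0.05.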

How the data were processed

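The deposited table holds, per the file headers, counts and FPKM for each gene in each library. The authors' counts are unnormalized, and the authors' FPKM values are scaled to a gene length and to library. Per the submitters' processing notes, bcl2fastq 2.0, HISAT2, StringTie, DESeq2 and limma were used with build mm10; their roles, and the strand setting of the counting, are not given in the sources used. RNA was depleted of ribosomal RNA and fragmented to 100 to 300 bp, per the labels' protocols. A further 12 columns of other samples were not used.

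Counts and FPKM were proportional within genes (median SD of the log2 ratio 0.000487 over 12236 genes). Genes averaging at least 1 FPKM over the 6 libraries (13153) were scaled by TMM and fitted in edgeR 4.0.16 (R 4.3.3) with treatment as the sole term, using the quasi-likelihood test and Benjamini-Hochberg adjustment over all genes. Log2 changes are baicalin minus saline, SE is the change divided by the square root of F, and levels within a gene are TMM-scaled CPM. The fit was tested on simulated counts. Isoform ratios used exact permutation tests. Alternatives included DESeq2 1.42.0, limma 3.58.1 on log2(FPKM + 1) and log2(FPKM + 0.1), RLE, upper-quartile and TPM scaling, other filters (none, 0.1 and 5 FPKM), a robust estimate, a replicate block and leaving out each library.

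The genes, lists and tests were chosen with earlier results of these data known. Values in every library are given for the 3 genes of each complex with the smallest p, those called by DESeq2, the isoform ratios and the gene of lowest log2 change in each complex. Near-identical pseudogene copies (at least 95% identity over at least 80% of the copy) exist for 15 of the 49 genes and reach 5% of the gene's count for 5 (Atp5g1, Atp5g2, Atp5h, Atp5l and Cox7c), and 17 genes overlap another gene, so such values may mix sources. No pair of libraries agreed within counting noise.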

Additional observations from a re-analysis of the deposited data

How the results depend on the processing

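The 48 tested genes were refitted under 18 other settings, or 17 for the 6 genes under 5 FPKM, which the filter at 5 FPKM leaves out, and 33 never changed sign. Of 858 refitted values, 822 kept their direction without newly passing the adjusted threshold, 5 passed it in DESeq2 alone and 31 changed sign. TPM scaling also moved the median of all genes tested, from -0.000631 to -0.0795. The cause of the sign changes was not tested. Values with the length trend removed had no adjusted p and were judged by direction alone. The same holds for Cox4i2, Cox6b2, Cox6c2, Cox7a1 and Cox8b in DESeq2. No edgeR or limma setting called any of the 48 genes at adjusted p, whereas the genes at an unadjusted p under 0.05 numbered 12 under TPM scaling, 13 to 20 with 1 library left out and 15 to 19 in the other settings with all libraries. DESeq2 called 218 genes, 5 of them among the 48. The replicate block (replicate number as a term) called 0 genes and left 17 of the 48 at an unadjusted p under 0.05; the numbers are not known to pair libraries, since deviations of same-numbered libraries correlated at 0.138, 0.0941 and 0.0353, although every library correlated best with its own number.

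Under TPM scaling the median log2 change was 0.0755 over the 48 genes and -0.0795 over all genes tested. It was -0.0299 over complex II, 0.0785 over complex III, 0.131 over complex IV and 0.0205 over complex V. Single values became -0.0427 for Cox5a, -0.0543 for Sdhd, -0.0251 for Sdha, -0.0627 for Atp5a1, -0.0537 for Uqcrc2, -0.0500 for Cox6a1, -0.0439 for Atp5s, -0.0348 for Sdhc and -0.00032 for Atp5g2. With the length trend removed the medians were 0.0785 over the 48 genes and 0.0776 over complex III, and single values became -0.00557 for Cox5a, -0.0676 for Sdhd, -0.00415 for Uqcr11, -0.00402 for Atp5a1, -0.00931 for Uqcrc2, -0.126 for Cox6a1, -0.0110 for Atp5s and -0.00556 for Uqcr10.

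With 1 library left out, genes called over the whole table numbered 2 (without baicalin library 3) to 39 (without baicalin library 1), with 10 without saline library 2 and 14 without saline library 3. The medians ranged from 0.0855 to 0.232 for complex III and from 0.0693 to 0.144 for complex V. The log2 changes ranged from -0.0308 to 0.0923 for Cox5a, -0.0453 to 0.0664 for Sdhd, -0.0491 to 0.0142 for Atp5b, -0.0025 to 0.0318 for Atp5a1, -0.0359 to 0.0306 for Uqcrfs1, -0.0557 to 0.0404 for Cycs, -0.0244 to 0.0634 for Cox6a1 and -0.282 to 0.148 for Cox6b2. The log2 difference in ratio ranged from -0.143 to 0.449 for Cox4i2 over Cox4i1 and from -0.0715 to 0.0332 for Cox7a2l over Cox7a2.

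The following were chosen after seeing the data. Without baicalin libraries 2 and 3, 14 genes were called, 9 of the 48 had an unadjusted p under 0.05 in edgeR, and the medians were 0.0531 over the 48 genes, 0.0449 over complex III and 0.0582 over complex V, with Cox8b at -0.138. Without the 5 genes whose pseudogene copies held at least 5% of their counts, the median over the rest was 0.15 with 16 at an unadjusted p under 0.05. Groups of 3 libraries limit what can be shown: no exact permutation p can fall below 0.1, and values of Cox4i2, Cox6c2, Cox7a1 and Cox8b rest on at most 112 counts a library.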
